A study of Mus musculus with 24 samples.

Results

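The genes described here code for proteins that carry a cell through mitosis: the kinases and cyclins of mitotic entry, the condensins that compact chromosomes, kinetochore and spindle checkpoint proteins, spindle motors, the chromosomal passenger complex and proteins of cytokinesis. They were taken by name from a list of 54 mouse genes, a rule that uses no measured value, although the list was drawn up with earlier results of these data known. The table of 18762 genes held 48 of them, and the other 6 (*Ndc80*, *Racgap1*, *Kif20b*, *Espl1*, *Cenpk* and *Ncapg2*) were not analysed here. All 48 had a mean of at least 10 normalised read counts over the mice, the minimum for testing, so the filter removed none.

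RNA-seq was performed on LSK-SLAM cells, a bone marrow population enriched for haematopoietic stem cells by its lack of lineage markers and CD48 and by Sca-1, c-Kit and CD150 on its surface. Cells came from wild-type C57BL/6 mice, 5 of them young (4 to 5 months by the labels) and 7 old (20 to 22 months). The study's supplementary text gives higher ages for both groups, and the ages of the labels are used here. RNA was isolated from 15000 cells of each mouse and 300 pg of ribosomal-depleted RNA entered each library. Each mouse had 2 labelled samples, deposited as 1 value per gene, and was counted once. No agent, transgene or engineered allele is named for any mouse, and no sex is given. The label of each mouse also carries a letter, A (young mice 1 and 2, old mice 1, 5, 6 and 7) or B (young mice 3, 4 and 5, old mice 2, 3 and 4), whose meaning the labels do not give.

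Mitosis is the short phase in which duplicated chromosomes are condensed, attached to the spindle and pulled apart before the cell divides. Most of the mRNAs described here are made in a wave late in the cell cycle, under the transcription factors B-MYB and FOXM1 with the MuvB complex, and are scarce in resting cells. Stem cells of adult bone marrow divide rarely, so at any moment few of them hold these transcripts. In bulk samples such as these, fewer cells in mitosis and less RNA per cell cannot be told apart.

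Promoters of this class are known for a short element, the cell cycle genes homology region with the core TTTGAA, which the MuvB complex binds, and for CCAAT boxes, which NF-Y binds. RefSeq promoters (GRCm38.p6, 250 bases before to 50 after the start) were at hand for 39 of the 48 genes and were searched on both strands. A gene with several promoters was counted once, if any of them held the element. TTTGAA was found in 28 of 39 (71.8%, 95% Wilson interval 56.2 to 83.5%), against 20.2% of all 27025 genes with a promoter entry. The variant core TTCGAA was found in 4 (10.3% against 1.80%) and CCAAT in 30 (76.9% against 41.1%), with at least 2 CCAAT boxes in 53.8% against 13.3%. Either core together with CCAAT in the same promoter was found for 71.8% of these members and 8.61% of all genes with an entry. These counts describe letters in a window, not sites shown to be bound, and the members were chosen for a function that such elements are known to accompany. Below are 4 of these promoters, shown because their genes had the smallest p for age among those holding both elements within the printed stretch, with TTTGAA and CCAAT, or their reverse complements TTCAAA and ATTGG, in capitals. They run 5′ to 3′ along the gene from 15 bases before the first element to 30 bases after the start and lie on GRCm38 at chr6:125191557-125191778 (minus strand, *Ncapd2*), chrX:100625898-100626094 (plus, *Kif4*), chr11:99024160-99024431 (minus, *Top2a*) and chr10:69352883-69353135 (minus, *Cdk1*).
Ncapd2: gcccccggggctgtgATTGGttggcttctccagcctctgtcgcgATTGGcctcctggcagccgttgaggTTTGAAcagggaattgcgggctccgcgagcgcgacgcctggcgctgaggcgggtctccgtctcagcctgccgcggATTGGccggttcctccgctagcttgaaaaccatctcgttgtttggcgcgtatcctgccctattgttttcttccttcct
Kif4: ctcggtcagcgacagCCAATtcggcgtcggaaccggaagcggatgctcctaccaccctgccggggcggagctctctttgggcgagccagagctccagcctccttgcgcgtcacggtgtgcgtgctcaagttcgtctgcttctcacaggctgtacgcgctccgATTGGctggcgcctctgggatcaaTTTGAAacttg
Top2a: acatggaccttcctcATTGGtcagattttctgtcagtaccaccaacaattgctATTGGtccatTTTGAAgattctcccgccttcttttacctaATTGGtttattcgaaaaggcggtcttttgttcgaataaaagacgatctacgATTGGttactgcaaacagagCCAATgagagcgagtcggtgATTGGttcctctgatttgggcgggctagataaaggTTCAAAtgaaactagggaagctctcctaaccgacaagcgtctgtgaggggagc
Cdk1: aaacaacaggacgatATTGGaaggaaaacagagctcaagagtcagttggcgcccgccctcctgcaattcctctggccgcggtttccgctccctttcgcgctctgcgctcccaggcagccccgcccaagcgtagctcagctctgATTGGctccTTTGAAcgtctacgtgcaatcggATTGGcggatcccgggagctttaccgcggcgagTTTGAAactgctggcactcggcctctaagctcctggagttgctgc

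*Top2a* carried 6 CCAAT boxes, *Ncapd2* and *Cdk1* 3 each and *Kif4* 2. The TTTGAA cores of *Cdk1* lay 71 and 15 bases before the start, and that of *Kif4* lay 19 bases after it. *Cdca3* also held both elements, but its core began 30 bases after the start and so is not printed. *Nusap1*, with the second smallest p of the members for age, held none of these elements in the window.

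Reads were recovered from the deposited values as described under processing, and young mice had between 2049091 and 5118507 of them, old mice between 861047 and 5004774. Letter A libraries were shallower (861047 to 3106243 reads) than letter B libraries (3233516 to 5118507 reads), and 3 reads were worth 0.583 to 3.69 normalised counts. A member had between 8 and 4041 reads in a mouse. Of the 12 stem and sort markers checked, all had a row, with *Kit* at 1572 ± 336 normalised counts in young and 1462 ± 571 in old mice (SD, n = 5 and 7). *Slamf1*, the gene of CD150, had means of 74.3 ± 10.4 and 106 ± 37.2, and *Procr* 76.8 ± 14.6 and 102 ± 28.6. Both were higher in old mice, with limma p = 0.113 and 0.138 by age alone. With the letter as a covariate p was 0.0277 and 0.0437, and adjusted p 0.838 and 0.922. *Cd48*, the gene of the marker gated against, averaged 7.30 ± 1.97 and 5.38 ± 4.80 and was below the minimum for testing.

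The first question was how much of the RNA of these cells came from mitosis genes at each age. The 48 genes took 0.398%, 0.314%, 0.397%, 0.376% and 0.469% of the recovered reads in young mice 1 to 5. In old mice 1 to 7 they took 0.264%, 0.219%, 0.278%, 0.258%, 0.326%, 0.355% and 0.264%. The ages overlapped, since old mice 5 and 6 lay above young mouse 2, but 4 of 5 young mice lay above every old mouse. With 3 genes of over 1% of reads left out of the total, 3 of 5 did, since old mouse 6 (0.413%) then lay above young mice 2 (0.380%) and 4 (0.396%). The mean was 0.391 ± 0.0558% in young and 0.280 ± 0.0456% in old mice, a ratio of 0.718, or 0.742 without those 3 genes. Within letter B the ages did not overlap (0.376 to 0.469% against 0.219 to 0.278%), whereas within letter A they did (0.314 to 0.398% against 0.264 to 0.355%).

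**Figure D1:**
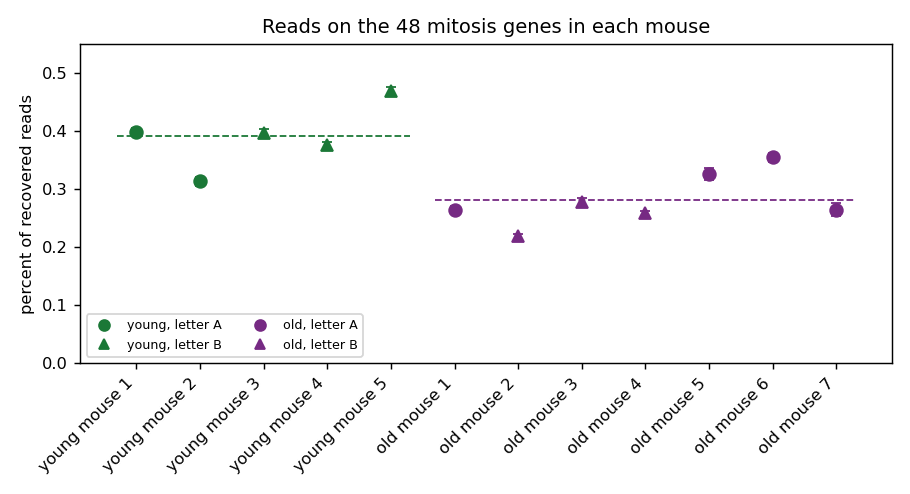
Share of recovered reads on the 48 mitosis genes (percent, y axis) in each of the 12 mice (x axis), coloured by age, with marker shape for the label letter, 95% Wilson intervals for counting error and dashed lines at the mean of each age. The young mice lie between 0.314 and 0.469%, the old between 0.219 and 0.355%.

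Gene by gene, mean levels were mostly lower in old mice, but no member passed the test across all genes. With limma on log2(normalised read count + 1) and Benjamini-Hochberg adjustment over 12354 genes, 0 of 48 members had an adjusted p under 0.05, as against 0.105% of all genes, and the smallest was 0.320 for *Ncapd2*. At an unadjusted p under 0.05, 16 members were lower in old mice (33.3%, against 1.99% of all genes) and 0 were higher (against 1.96%). The count of 0 was also obtained with edgeR's quasi-likelihood test (0.146% of all genes called), where 17 members were lower at an unadjusted p under 0.05 (1.86% of all genes). DESeq2 called 1, *Ncapd2* (0.461% of all genes called), and 16 were lower (2.1% of all genes). The fold change lay below 0 for 43 members, against 52.3% of all genes. Its median was -0.36 on the log2 scale for the members and -0.02 for all genes, and the median ratio of the old to the young mean was 0.773. The 16 were *Ncapd2*, *Nusap1*, *Kif4*, *Top2a*, *Cdca3*, *Cdk1*, *Ccna2*, *Ccnb2*, *Mki67*, *Cdca8*, *Aurka*, *Kif20a*, *Tpx2*, *Incenp*, *Ncapg* and *Hmmr*, with young means 1.32 to 1.98 times the old. The 5 members with a fold change above 0 were *Nuf2* (0.25), *Ttk* (0.19), *Plk1* (0.15), *Bub1b* (0.14) and *Cdc25b* (0.02). The ages did not overlap for 1 member, *Ncapd2*, against 0.17% of all genes lower without overlap. The 16 depended on single mice: without young mouse 5 there were 8, and without old mouse 2 there were 10.

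**Figure D2:**
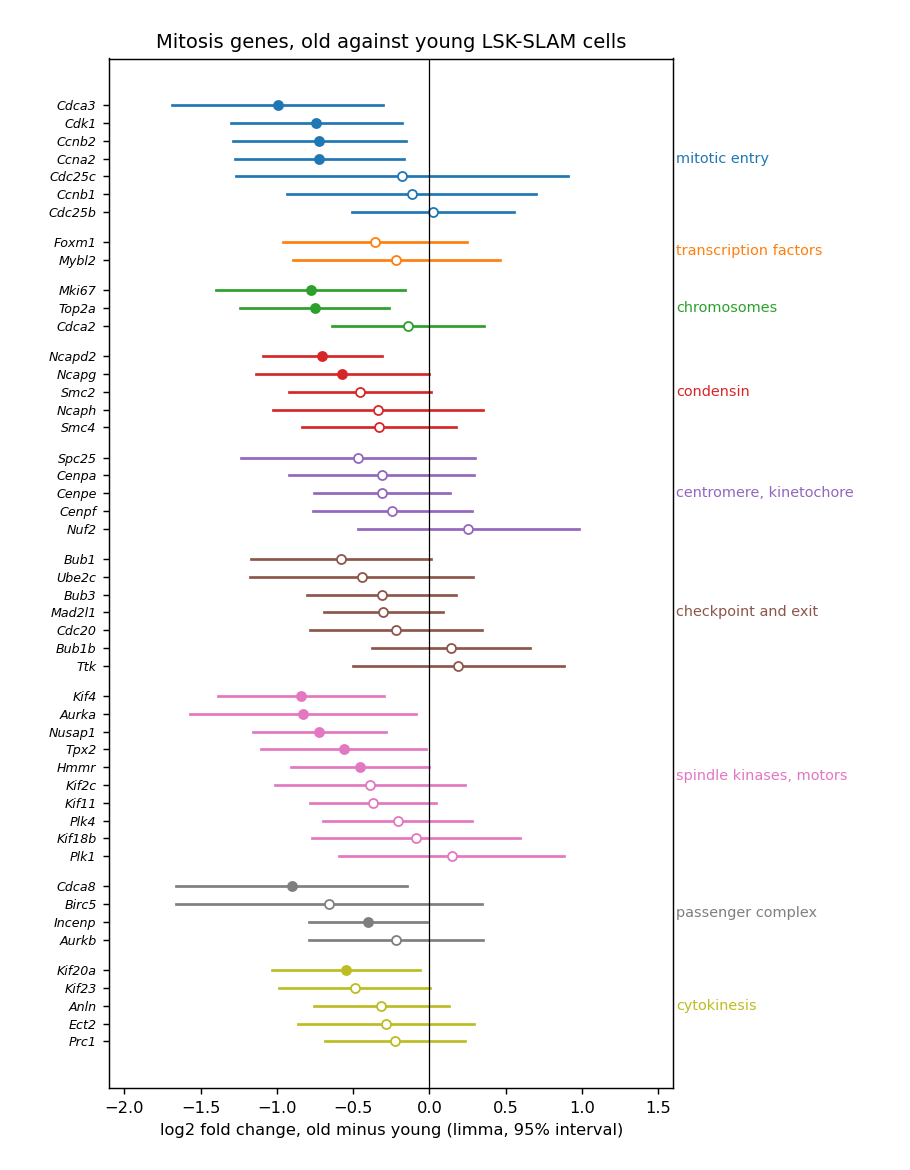
Log2 fold change (old minus young, x axis) with its 95% interval for each of the 48 mitosis genes (y axis), grouped and coloured by role; filled points have an unadjusted p under 0.05 in limma. The points run from -0.995 for *Cdca3* to 0.25 for *Nuf2*, and 43 lie left of 0.

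Among the 7 genes of mitotic entry, 4 were lower in old mice at an unadjusted p under 0.05 and the median fold change was -0.72. *Ccna2*, which encodes cyclin A2, stood at 168, 85.6, 163, 126 and 187 normalised counts in young mice 1 to 5 and between 52.6 and 163 (median 85.3) in old mice. Young mouse 2 lay close to the median of the old mice and old mouse 6 among the young, so the ages overlapped. The means were 146 ± 40.2 and 90.5 ± 37.5, with a log2 fold change of -0.72 (SE 0.26, p = 0.0134, limma adjusted p = 0.904). *Cdca3*, a trigger of WEE1 degradation at mitotic entry, had the lowest fold change of all members. It stood at 28.3, 36.5, 29.6, 20.2 and 23.5 in young mice and between 7.51 and 20.3 (median 13.5) in old mice. The lowest young mouse lay just under the highest old mouse, and the log2 fold change was -0.995 (SE 0.33, p = 0.00736, limma adjusted p = 0.757). For *Cdk1*, the kinase that drives entry, the values were 46.7, 49.997, 28.6, 26.3 and 52.0 in young mice and 16.3 to 34.5 (median 19.9) in old mice, with a log2 fold change of -0.74 (SE 0.27, p = 0.0128, limma adjusted p = 0.900). Of its B-type cyclin partners, *Ccnb2* had a fold change of -0.72 (SE 0.27, p = 0.0153) and *Ccnb1* one of -0.12 (p = 0.769). *Foxm1*, one of 2 transcription factors listed, stood at 47.9, 51.9, 22.4, 47.9 and 56.1 in young and 22.2 to 67.1 (median 31.9) in old mice, which overlapped widely (log2 fold change -0.36, SE 0.29, p = 0.231).

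*Mki67*, the gene of the proliferation marker Ki-67, which coats mitotic chromosomes, and *Top2a*, the topoisomerase that untangles sister DNA, form the chromosome group with *Cdca2*. Per kilobase of merged exon, *Mki67* had the highest mean level of the members (53.4 normalised counts per kb over the 12 mice), followed by *Smc4* (43.3), *Ccna2* (27.8) and *Top2a* (25.9), while *Cdc25c* had the lowest (2.71). *Mki67* stood at 607, 407, 793, 778 and 925 normalised counts in young and 269.9 to 697 (median 378) in old mice. *Top2a* stood at 332, 178, 301, 338 and 379.6 in young and 117 to 258 (median 172) in old mice. Young mouse 2 lay within the range of the old mice in both, and so did young mouse 1 for *Mki67*. The log2 fold changes were -0.78 (SE 0.29, p = 0.0163, limma adjusted p = 0.946) and -0.75 (SE 0.23, p = 0.00468, limma adjusted p = 0.642).

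All 5 condensin subunits had a fold change below 0, with a median of -0.45, and 2 had an unadjusted p under 0.05. *Ncapd2*, a subunit of condensin I, stood at 139, 139, 129.7, 129 and 193 normalised counts in young mice and between 57.8 and 113 (median 95.1) in old mice. Every young mouse lay above every old mouse, at means of 146 ± 26.6 and 89.9 ± 17.99. Its log2 fold change was -0.70 (SE 0.19, p = 0.00142), the smallest p of the members, with an adjusted p of 0.320 in limma. DESeq2 gave an adjusted p of 0.0202, within a range of 0.0202 to 0.9999 over all settings tried. *Smc4*, the condensin ATPase with the highest count of the group, stood at 240.5, 192, 389, 235 and 217 in young and 103 to 275 (median 221) in old mice, and 4 of 5 young mice lay within the old range (log2 fold change -0.33, SE 0.24, p = 0.185).

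The 5 centromere and kinetochore genes and the 7 genes of the checkpoint and mitotic exit had medians of -0.31 and -0.30, and none was lower at an unadjusted p under 0.05. *Cenpe*, the kinetochore motor, stood at 91.5, 92.8, 102, 93.0 and 136 normalised counts in young and 54.0 to 120.4 (median 92.7) in old mice. *Cenpf*, a large kinetochore protein, stood at 81.5, 112, 147, 103 and 120.5 in young and 51.1 to 152 (median 86.2) in old mice. Both overlapped, with log2 fold changes of -0.31 (SE 0.21, p = 0.158) and -0.24 (SE 0.25, p = 0.339). *Bub1*, a checkpoint kinase, had 59.7, 42.3, 31.0, 40.0 and 65.5 in young and 18.3 to 49.7 (median 30.2) in old mice, with a log2 fold change of -0.58 (SE 0.28, p = 0.0527). Its partner *Bub3*, had 127, 132, 138, 109.9 and 171 in young and 54.1 to 147 (median 122) in old mice (-0.31, SE 0.23, p = 0.194). The means of both were lower in old mice, and by age alone neither reached an unadjusted p under 0.05. With the letter as a covariate, limma gave p = 0.0104 for *Bub1* (adjusted p = 0.570) and p = 0.244 for *Bub3*.

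Of the 10 spindle kinases, motors and assembly factors, 5 were lower in old mice at an unadjusted p under 0.05, and the median was -0.42. *Nusap1*, which bundles spindle microtubules, stood at 91.1, 78.8, 88.1, 94.2 and 121 normalised counts in young and 38.4 to 87.3 (median 56.0) in old mice. Young mouse 2 alone lay below the highest old mouse. The log2 fold change was -0.72 (SE 0.21, p = 0.00265, limma adjusted p = 0.475). *Kif4*, the chromokinesin, had 67.8, 41.8, 49.4, 36.1 and 57.0 in young and 16.4 to 40.6 (median 30.7) in old mice, with young mouse 4 alone inside the old range (-0.84, SE 0.26, p = 0.00445, limma adjusted p = 0.640). *Kif11*, the motor that separates the spindle poles, had 122, 80.8, 157, 133 and 176 in young and 82.1 to 122 (median 95.8) in old mice, and young mouse 2 lay below every old mouse (-0.37, SE 0.20, p = 0.0768).

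The 4 genes of the chromosomal passenger complex, which corrects faulty attachments, had a median of -0.53. *Cdca8*, which encodes borealin, stood at 22.7, 39.4, 26.7, 20.6 and 36.7 normalised counts in young and 5.88 to 26.2 (median 17.2) in old mice. *Incenp*, the scaffold of the complex, stood at 80.3, 54.3, 75.0, 69.9 and 80.8 in young and 40.2 to 69.4 (median 52.9) in old mice. The log2 fold changes were -0.90 (SE 0.36, p = 0.0217) and -0.40 (SE 0.18, p = 0.0434), and the ages overlapped in both. Among the 5 cytokinesis genes the median was -0.32. The kinesin gene *Kif20a* stood at 43.2, 73.6, 56.1, 54.7 and 91.1 in young and 30.6 to 60.1 (median 43.4) in old mice (-0.55, SE 0.23, p = 0.0300). *Prc1*, which bundles the central spindle, stood at 82.7, 53.8, 74.4, 77.5 and 82.3 in young and 34.7 to 84.9 (median 66.3) in old mice (-0.22, SE 0.22, p = 0.318). Of the pair, only *Kif20a* reached an unadjusted p under 0.05.

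**Figure D3:**
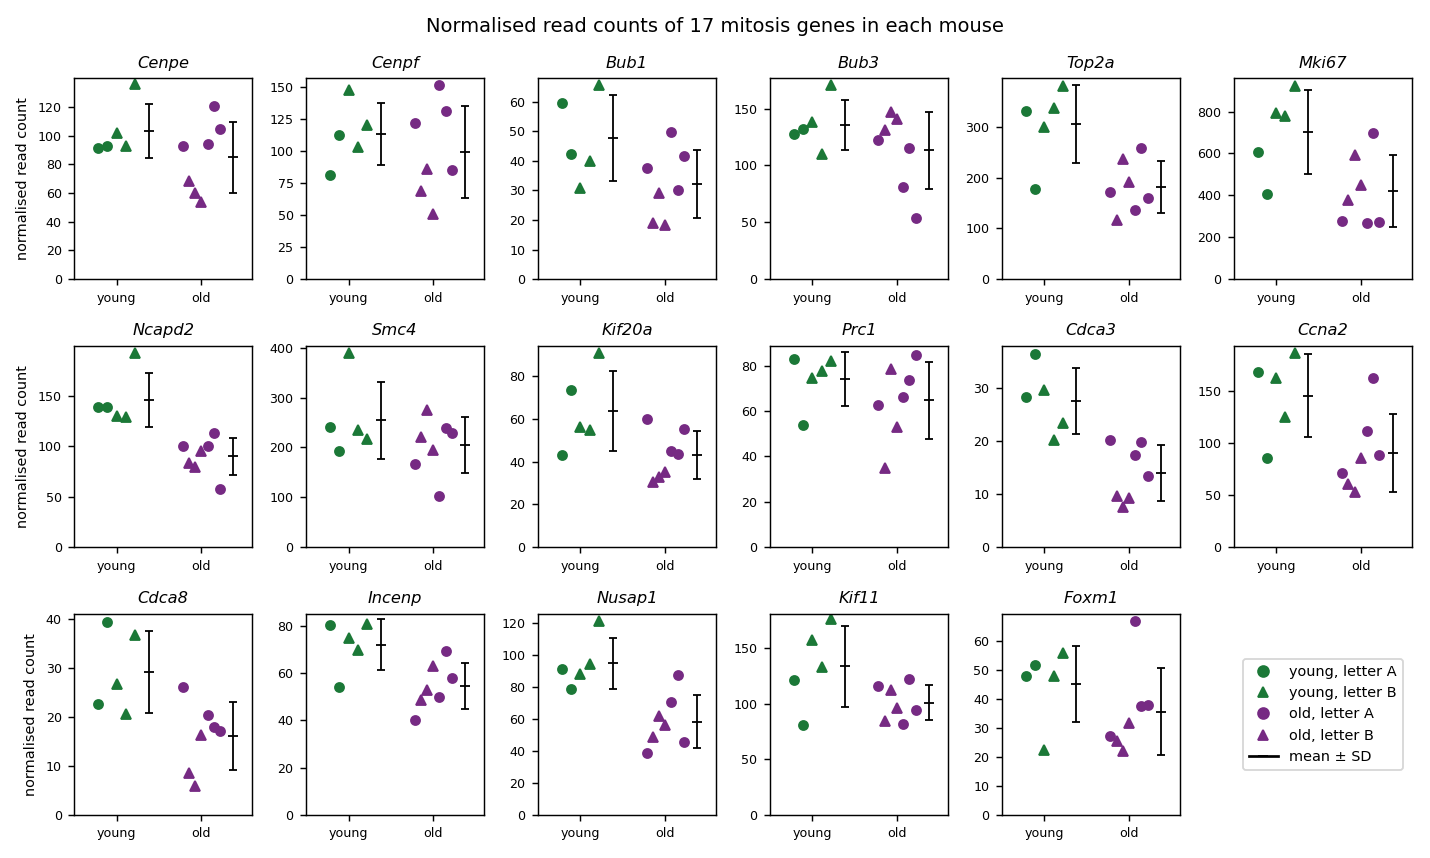
Normalised read counts (y axis, from 0) of 17 mitosis genes in each young and old mouse (x axis), with marker shape for the label letter and the mean ± SD of each age beside the points. *Ncapd2* is the gene in which no old mouse reaches the lowest young mouse, and the lowest point for *Ccna2* and for *Cenpf* is an old letter B mouse.

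Reads of some members could be confused with those of other genes. In 10 members over 10% of the 50-base words of the annotated transcripts also occurred, on either strand, in transcripts of another gene. Among them were *Kif20a* (25.2%, *Cdc23*), *Ccnb1* (23.4%, its pseudogene *Ccnb1-ps*), *Kif4* (14.5%, *Pdzd11*), *Ncapg* (11.8%, *Lcorl*) and *Ccna2* (11.4%, *Exosc9*). The strand setting of the counting is not given in the sources used here, and values of these members are uncertain to that extent. On GRCm38, *Mki67* (ENSMUSG00000031004) lies on chromosome 7 from 135689784 to 135716361, *Top2a* (ENSMUSG00000020914) on chromosome 11 from 98992943 to 99024189, *Ccna2* (ENSMUSG00000027715) on chromosome 3 from 36564865 to 36572150 and *Ncapd2* (ENSMUSG00000038252) on chromosome 6 from 125168007 to 125191701, all on the minus strand. Counts cover whole genes.

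The letters were then examined, since they split the mice by depth. In the fit with age, 2 members differed between letters B and A at an adjusted p under 0.05 in limma (*Cdc25c* -1.25 and *Kif18b* -0.84 on the log2 scale), against 36.1% of all genes. With the letter as a covariate, 0 members were called for age (0.299% of all genes were), the smallest adjusted p was 0.100 for *Kif4*, and 18 members were lower at an unadjusted p under 0.05 (2.66% of all genes), 15 of them among the 16 above. The fold change lay below 0 for 44 members (57.3% of all genes), with a median of -0.40 against -0.05 over all genes. Within letter B (3 young and 3 old mice), 3 members fell at an adjusted p under 0.05 in limma (0.809% of all genes were called, 0.154% as lower), 26 were lower at an unadjusted p under 0.05 (3.65%), and the median was -0.66. Within letter A (2 young and 4 old mice), 0 were called (0.00809%), 0 were lower and 1, *Nuf2*, was higher at an unadjusted p under 0.05 (0.567% and 2.01%), and the median was -0.21. The ages did not overlap, with old lower, for 29 members in letter B (6.18% of all genes) and for 6 in letter A (5.31%). In letter B, 47 members had a fold change below 0 (54.7% of all genes), all but *Bub3* (0.02), and in letter A 34 did (53.2%).

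The 3 genes called within letter B were *Ccna2*, *Top2a* and *Mki67*. *Ccna2* lay at 126 to 187 normalised counts in young and 52.6 to 85.3 in old letter B mice, with a log2 fold change of -1.26 (limma adjusted p = 0.000747). In letter A it lay at 85.6 to 168 and 71.4 to 163 (-0.21). *Top2a* lay at 301 to 379.6 against 117 to 238 in letter B (-0.95, limma adjusted p = 0.00841), and its fold change in letter A was -0.46. *Mki67* lay at 778 to 925 against 378 to 594 in letter B (-0.83, limma adjusted p = 0.0115), and its fold change in letter A was -0.52. Over all settings tried, these values were the lowest adjusted p of each gene and the highest was 0.999999. The 3 genes were separated by age in letter B and overlapped in letter A.

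Whether the age difference itself differed between the letters was tested with the product of age and letter. In limma 0 members had an adjusted p under 0.05 (0.0162% of all genes did), with a smallest adjusted p of 0.9998, so a difference between letters was not shown for any member. At an unadjusted p under 0.05 the product was below 0, meaning a lower fold change in letter B, for 8 members (2.13% of all genes): *Cenpf*, *Ccnb1*, *Cenpe*, *Ect2*, *Ccna2*, *Bub1b*, *Nuf2* and *Kif23*. The product lay below 0 for 45 of 48 members, against 50.6% of all genes, with a median of -0.54 against -0.01. After TMM scaling the 8 became 3, and the median was -0.41 against 0.13. *Ccnb1* gives an example, at 8.17 to 24.0 in young and 16.0 to 48.1 in old letter A mice, and at 27.5 to 43.5 in young and 13.7 to 18.9 in old letter B mice. Its fold change was 0.86 in letter A and -0.94 in letter B (product -1.799, p = 0.00985). *Cenpf* went from 0.32 to -0.85 (product -1.17, p = 0.00615) and *Cenpe* from 0.15 to -0.84 (product -0.99, p = 0.0104).

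**Figure D4:**
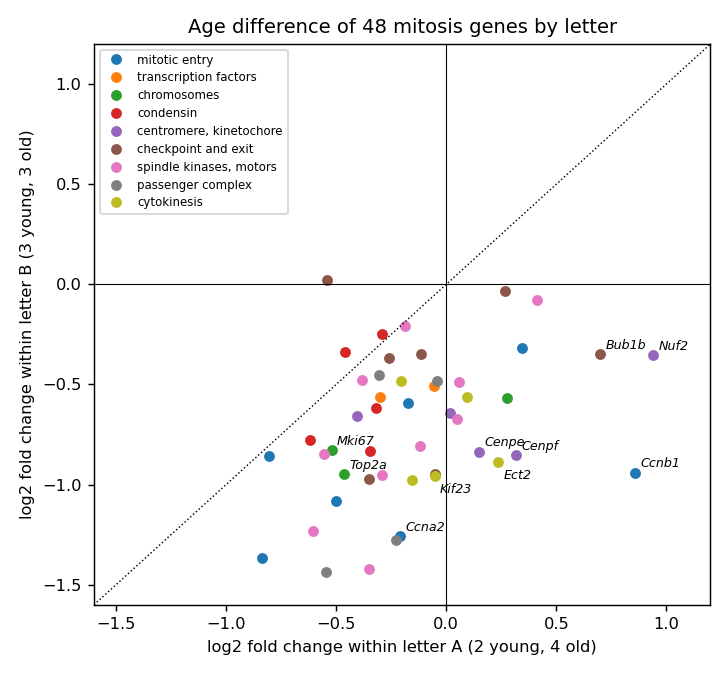
Log2 fold change of the 48 mitosis genes, old minus young, within letter B (y axis) against letter A (x axis), coloured by role; the dotted line marks equal differences, and names are given for genes with an unadjusted p under 0.05 for the product or a call within letter B. Of the points, 45 lie below the dotted line, and 14 lie right of 0 and below 0 on the y axis.

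The members were also followed mouse by mouse. Taking each gene's mean over the 12 mice on the log2 scale, between 28 and 45 of the 48 members lay above it in the young mice, with young mouse 5 the highest. In old mice 2, 3 and 4, those of letter B, 4, 15 and 4 members did. In old mice 1, 5, 6 and 7, those of letter A, it was 20, 28, 35 and 27. The summed normalised counts of 9 myeloid markers (*Mpo*, *Elane*, *S100a8* and others) were also high in old mice 5, 6 and 7. These sums were 1217, 4226 and 935, against 305 to 678 in the other old mice. Young mouse 5 had a sum of 970 against 322 to 536 in the other young mice. Of the 9, only *Mpo* is given singly, so the sum does not show that each marker was high in these mice. *Mpo* averaged 61.6 ± 34.1 (young) and 140 ± 229 (old), with a log2 fold change of -0.05. Its lowest old value was 2.92 and its highest 651. Old mice 5, 6 and 7 and young mouse 5 are called high in myeloid markers by their sums alone. Without these 4 mice 0 members were called, 19 were lower in old mice at an unadjusted p under 0.05 and the median was -0.52. The old mice kept were then 1 of letter A and 3 of letter B, so this set differs from the whole in letter as well as in myeloid markers, and these cannot be told apart here. After thinning every library to 861047 reads, 13 were lower and the median was -0.44. Summed megakaryocyte markers (5 with a row) lay between 353 and 584 in young and 387 and 902 in old mice, with medians of 468 and 723. Of these markers *Pf4* went the other way, at means of 41.0 ± 26.4 in young and 14.6 ± 6.22 in old mice. Its log2 fold change was -1.33 (SE 0.45, limma p = 0.00928, adjusted p = 0.796). Summed erythroid markers (9) lay between 142 and 312 in young and 92.4 and 848 in old mice. Lymphoid markers (8) lay between 58.9 and 135 and between 62.5 and 158.6. None of these marker genes was at 0 in every mouse, and the part of other cell types in the member values was not tested.

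*Cd34* and *Flt3*, markers of progenitors, which divide more than stem cells, had lower means in old mice, though neither passed the test by age alone. The summed counts of 5 progenitor markers with a row lay between 182 and 308 in young mice, and between 101 and 182 in the old, which met at the edge. Of the 5, only *Cd34*, *Flt3* and *Cd48* are given singly, so the sum does not show that each was lower. *Cd34* stood at 182 ± 53.0 in young and 84.5 ± 10.4 in old mice (SD, n = 5 and 7), with a log2 fold change of -1.04 (SE 0.20, limma adjusted p = 0.0544, or 0.00856 with the letter as a covariate). *Flt3* stood at 54.1 ± 13.6 and 30.8 ± 13.0 (-0.87, limma adjusted p = 0.780). The part of this difference in the values of the mitosis genes was not tested. For the stem and sort markers the sums lay between 3832 and 6896 (young) and between 2061 and 7409 (old).

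A further list of mitosis genes, with other kinetochore, checkpoint, anaphase-promoting complex, spindle, cohesin and cytokinesis genes, had 93 rows, of which 91 were tested. None was called, 7 were lower in old mice at an unadjusted p under 0.05 and 0 higher (1.99% and 1.96% of all genes), 81 had a fold change below 0 (52.3% of all genes) and the median was -0.24. Those lowest in p were the spindle proteins *Ckap2* (-0.98, SE 0.29, p = 0.00325, limma adjusted p = 0.557) and *Kif15* (-0.81, p = 0.00389, limma adjusted p = 0.608) and the cyclin F gene *Ccnf* (-0.81, p = 0.0084, limma adjusted p = 0.780). *Ckap2* averaged 39.1 ± 7.96 in young and 20.2 ± 8.29 normalised counts in old mice. Above 0 with the smallest p were the centromere gene *Cenpw* (0.54, p = 0.233), the anaphase-promoting complex gene *Anapc4* (0.20, p = 0.345) and the securin gene *Pttg1* (0.24, p = 0.348). Of these 7, 5 were among 18 further spindle and kinesin genes, and the others were *Ccnf* and, named after its values were seen, *Kntc1* (-0.55, p = 0.0439), which acts at the kinetochore and was listed with the checkpoint genes. A list of 33 DNA replication genes, which act earlier in the cell cycle, had 16 lower at an unadjusted p under 0.05 (1.99% of all genes). Of the 33, 32 lay below 0 (52.3%), and the median was -0.50. In letter A and letter B its medians were -0.30 and -0.64, beside -0.21 and -0.66 for the members. No test of one list against another was made.

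**Figure D5:**
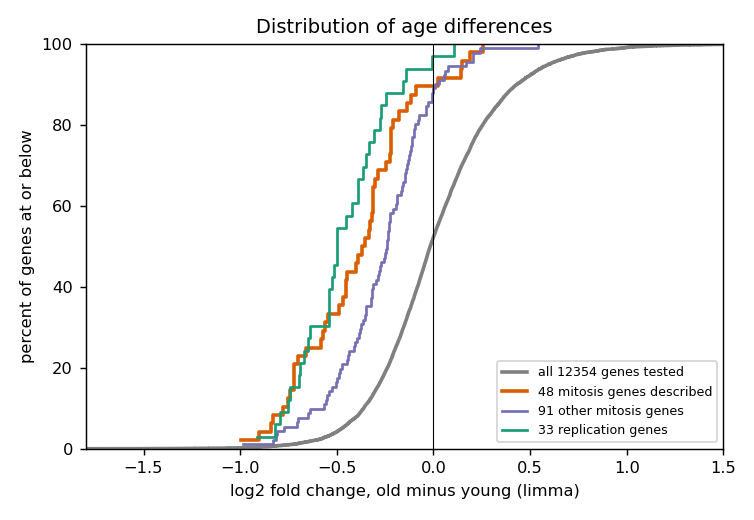
Percent of genes (y axis) at or below each log2 fold change, old minus young (x axis), for the 48 mitosis genes described, 91 other mitosis genes, 33 replication genes and all 12354 genes tested. The medians are -0.36, -0.24, -0.50 and -0.02.

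The promoter elements could be set beside the age values. Members with either core and CCAAT (28) had a median log2 fold change of -0.45 and the other 11 with a promoter entry -0.31, and 11 of the 12 members at an unadjusted p under 0.05 with an entry held both. This is a description over genes that share libraries, and no test was made of it.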

How the data were processed

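RNA-seq libraries (TotalScript) of LSK-SLAM cells (5 young mice, 7 old) were analysed from a table of normalised read counts. This deposited signal holds, for each gene and mouse, reads that the authors scaled to library size and a normalisation factor with edgeR 3.24.3. The submitters' processing notes name FastQC 0.11.8, STAR 2.5.4b and mm10. The counting tool, the annotation and the strand setting are not given in the sources used here. A second table holds the authors' own fold changes and p-values and was not used.

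Gene positions and exon lengths came from GENCODE vM21 (GRCm38), which matched 18745 of the 18762 gene IDs. In every mouse 100% of values were whole multiples of what 1 read was worth (tolerance 0.001), which gave back the reads. Their totals (861047 to 5118507) set the counting error, and Wilson intervals cover counting error only.

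Ages were compared with limma 3.58.1 in R 4.3.3 (lmFit, eBayes with trend) on log2(value + 1), which understates changes of low genes. Genes had a mean of at least 10, and p-values were two-sided with Benjamini-Hochberg adjustment over 12354 genes. The count test on recovered reads (edgeR 4.0.16, quasi-likelihood) called 18 genes over all, and DESeq2 1.42.0 was also run. The functions were tested on simulated data. Mice were taken as replicates by their labels. Alternatives covered the letter, scaling, filter, pseudocount, tool, depth and single mice. The members and all lists were chosen with earlier results of these data known. Values of each young mouse, with the range and median of the old mice, were given for members called or without overlap. In each role they were also given for the member with the smallest p and that with the highest count. *Cdk1* and *Kif4*, given in the same way, and *Ccnb1*, given as ranges by letter, were added after their values were seen. Python 3.11.15 was used for summaries.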

Additional observations from a re-analysis of the deposited data

Results flagged for a closer look

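Dixon's criterion was applied to 98 groups of mice (48 members and their summed share of reads, at each age). In 10 of them a single highest or lowest mouse stood apart from the rest of its age. A rate of 1 in 20 over independent groups gives 4.9, but these groups share the same mice, so no conclusion is drawn from this. Among young mice, mouse 5 stood apart for *Ncapd2* (193 normalised counts, others 129 to 139), *Cenpe* (136, others 91.5 to 102) and *Cdca2* (65.5, others 37.1 to 45.3). Young mouse 3 stood apart for *Smc4* (389, others 192 to 240.5) and, at the low end, *Foxm1* (22.4, others 47.9 to 56.1). Young mouse 2 was low for *Prc1* (53.8, others 74.4 to 82.7), and young mouse 1 was high for *Aurkb* (36.4, others 30.8 to 32.2). Among old mice, each of the values that stood apart belonged to mouse 5: *Aurkb* at 56.8 (others 15.4 to 32.0), *Birc5* at 52.1 (others 6.78 to 25.0) and *Foxm1* at 67.1 (others 22.2 to 38.1).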

How the results depend on the processing

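Of the settings for 17 members with values in every mouse, 496 kept the direction and the side of the threshold, while *Ccna2*, *Top2a* and *Mki67* within letter B and *Ncapd2* with DESeq2 passed it. Within letter A the fold change turned positive for *Cenpe* (0.15), *Cenpf* (0.32), *Prc1* (0.10) and *Kif11* (0.047), and for *Bub3* it did so within letter B (0.023) and without the 4 mice high in myeloid markers (0.10). The 0 members called became 3 within letter B and 1 with DESeq2. The 16 members lower at an unadjusted p under 0.05 became 0 within letter A, 26 within letter B, 9 (of 20 tested) with a minimum mean of 50, and 8 to 18 with a mouse left out. The 43 members below 0 became 19 of 20 with a minimum mean of 50 and 41 to 44 with a mouse left out, and the median of -0.36 became -0.66 within letter B and -0.43 to -0.28 with a mouse left out. The 8 members with a lower product of age and letter became 3 after TMM scaling, 4 with a minimum mean of 50 and 5 without the variance trend.

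The 7 other mitosis genes lower at an unadjusted p under 0.05 became 0 within letter A, 19 within letter B, 11 with the letter as a covariate, 14 with edgeR and the letter, 3 with a minimum mean of 50, 11 without the 4 mice high in myeloid markers and 5 to 10 with a mouse left out. Over all genes, the 13 called became 57 with DESeq2, 5 after TMM scaling, 5 after median-ratio scaling, 23 after scaling without genes over 1% of reads, 2 without the variance trend, 37 with the letter as a covariate, 43 with edgeR and the letter, 1 within letter A, 100 within letter B, 39 without the 4 mice high in myeloid markers and 3 to 32 with a mouse left out. The edgeR fit with the letter and the fit without those 4 mice were chosen after seeing the data. The causes of these differences were not tested.

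The replicate numbers join different animals and were not taken as pairs. Correlations of deviations from the group means ran from -0.56 to 0.61 for young and old mice of the same number. They averaged 0.14, and -0.02 for mice of different numbers. For mice of the same letter the mean was 0.35, and for different letters -0.33. Same numbers join both like and unlike letters, so this range does not decide whether the numbers mark pairs. With the replicate block over replicates 1 to 5, 0 members were called, 22 were lower at an unadjusted p under 0.05 (21 over the same mice without the block) and 11 other mitosis genes were (13 without). Over all genes 19 were called with the block and 8 without.

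The design has 5 and 7 mice and no label that explains the letter. Depth limits the lowest members most, where a mouse had as few as 8 reads.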
